A study of Mus musculus with 16 samples.

Results

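The Hu and TIA genes encode RNA-binding proteins that act on the processing, stability and translation of messenger RNA. The 6 members were chosen by name as the mouse genes Elavl1, Elavl2, Elavl3, Elavl4, Tia1 and Tial1, and a probe set was taken for a member where the array annotation gave it that symbol alone. This rule found 120 of the 625534 probe sets on the array: 18 for Elavl1, 17 for Elavl2, 10 for Elavl3, 16 for Elavl4, 32 for Tia1 and 27 for Tial1. Of these, 108 had a mean above the floor of 6.73 log2 units, which is the median of all probe sets (14, 16, 10, 15, 30 and 23 in the same order), and the other 12 were left out. All 6 members were among the 14570 genes that could be tested.

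Hu proteins bind uridine-rich and AU-rich stretches of mRNA and commonly stabilise the bound message. Elavl1, also called HuR, is made in nearly every cell type, whereas Elavl2 (HuB), Elavl3 (HuC) and Elavl4 (HuD) are made mainly in neurons, where they mark and promote neuronal differentiation and also steer alternative splicing. Tia1 (TIA-1) and Tial1 (TIAR) bind uridine-rich RNA next to 5′ splice sites, where they help the U1 snRNP to engage the site, and in stressed cells they gather stalled mRNAs into stress granules. Hu and Nova proteins were both recognised as neuronal autoantigens in paraneoplastic neurological disease.

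The study used 16 Affymetrix mouse exon arrays, which carry separate probe sets for most parts of each gene. All embryos were of the outbred CD1 stock at embryonic stage E18.5. The 4 groups were wild type whole brain, Nova1/2 double knockout (dKO) whole brain, wild type spinal cord and Nova1/2 dKO spinal cord, with 4 arrays each and 1 array per biological replicate according to the design text. Nova1 and Nova2 are neuronal splicing regulators, and the labels name no Cre line, promoter or deleted exons for their knockout alleles. The level of a gene is the median of log2(intensity + 16) over its probe sets above the floor, and levels of different genes are not set against each other, since probes differ in brightness.

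The arrays carried their labels in the targeted genes. In dKO brain, Nova1 fell by 5.03 log2 units (SE 0.171, adjusted p = 2.44e-13, limma with Benjamini-Hochberg adjustment, as for every adjusted p on gene levels and exon indices) and by 5.31 in dKO cord (adjusted p = 8.94e-14). Nova2 fell by 0.75 in brain (adjusted p = 0.00162) and by 1.14 in cord (adjusted p = 2.43e-06). Cortical genes such as Emx1 and Tbr1 marked the brain arrays and Hox genes the cord arrays, apart from the number 3 brain arrays. There, the mean level of 5 telencephalon genes was 7.07 in wild type and 8.05 in dKO, against 9.82 to 10.11 on the other 6 brain arrays and 7.23 to 7.63 in wild type cord. In cord, 11 of 12 listed skeletal muscle genes were measured, and their mean level was 9.07 to 10.11 on wild type arrays 1 and 4 and dKO arrays 2 and 4, against 7.43 to 7.77 on the other 4. The dKO brain arrays all showed a female pattern of Xist and Y-linked genes, against 2 of 4 in wild type brain, 2 of 4 in wild type cord and 3 of 4 in dKO cord. Results are given with and without the number 3 brain arrays and the muscle-rich cord arrays where these decide them.

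In brain, none of the 6 genes passed the test between genotypes, against 0.268% of all genes (39 of 14570). The members' median difference, dKO minus wild type, was -0.01 log2 units, and that of all genes was 0.02. Because whole tissue was measured, fewer cells of a type and less RNA per cell cannot be told apart in any of these levels. Without both number 3 arrays, 0 of the 6 passed as before.

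Elavl1 levels in brain were 10.29, 10.60, 10.22 and 10.61 on the wild type arrays and 10.50, 10.35, 10.23 and 10.47 on the dKO arrays. The dKO arrays lay inside the wild type range, below its highest 2 arrays, and the difference was -0.04 (SE 0.117, 95% interval -0.29 to 0.20, adjusted p = 1.00). The neuronal member Elavl2 had levels of 10.19, 10.34, 10.09 and 10.03 in wild type and 10.14, 10.33, 10.49 and 9.92 in dKO brain. Both the highest and the lowest of these 8 arrays were dKO arrays, and the difference was 0.06 (95% interval -0.21 to 0.32).

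Elavl3, which is expressed in most maturing neurons, varied least within a group in brain. It stood at 11.39, 11.35, 11.28 and 11.46 in wild type and 11.36, 11.41, 11.27 and 11.35 in dKO brain, a difference of -0.02 with a 95% interval of -0.22 to 0.18. Elavl4, known for its part in neurite growth, stood at 10.06, 10.15, 9.99 and 9.94 in wild type and at 9.99, 10.20, 9.99 and 9.98 in dKO brain (difference 0.01, 95% interval -0.23 to 0.24). The intervals of these neuronal Hu genes contain 0 and reach no further than 0.32 in either direction.

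For the TIA pair, Tia1 levels were 9.62, 10.08, 9.84 and 10.08 in wild type and 9.78, 9.94, 9.83 and 9.81 in dKO brain. The dKO arrays lay inside the wild type range, and the difference was -0.07 (95% interval -0.29 to 0.16). Tial1 levels were 9.37, 9.69, 9.38 and 9.55 in wild type and 9.38, 9.66, 9.54 and 9.48 in dKO brain. Here too the dKO arrays lay inside the wild type range, with a difference of 0.02 (95% interval -0.22 to 0.26). All 6 adjusted p-values in brain came to 1.00.

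**Figure D1:**
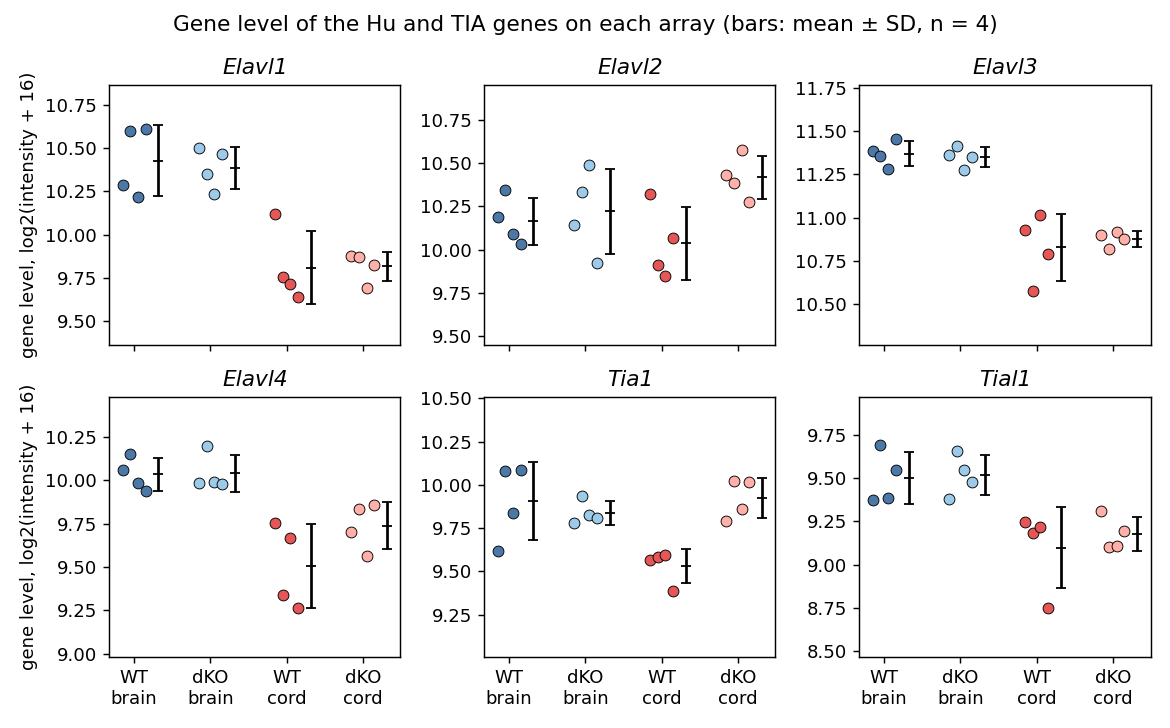
Gene level, in log2(intensity + 16), of each of the 6 genes on all 16 arrays, with 1 point per array and bars for the mean and SD of 4 arrays. The brain groups overlap for every gene, while in cord the 4 dKO points of Tia1 (9.79 to 10.02) lie above the 4 wild type points (9.39 to 9.59).

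In spinal cord, 1 of the 6 members passed the test between genotypes: Tia1 was higher in dKO cord. Of all genes, 5.63% passed in either direction and 1.08% were higher, so that most called genes were lower there (4.55%). The members' median difference was 0.16, against -0.03 over all genes. Elavl2 differed by nearly as much as Tia1 but missed the threshold, and for the other 4 genes the 95% intervals contained 0.

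Tia1 levels were 9.57, 9.59, 9.59 and 9.39 on the wild type cord arrays and 9.79, 10.02, 9.86 and 10.01 on the dKO cord arrays. The 2 groups did not overlap, which held in this direction for 3.9% of all genes. The mean rose from 9.53 ± 0.0983 to 9.92 ± 0.116 (SD, n = 4), a difference of 0.39 (SE 0.107, 95% interval 0.17 to 0.61), or 1.31-fold, with an adjusted p of 0.0368 in limma. The call depended on single arrays: it was kept in 1 of 8 fits that left out a cord array, with adjusted p-values from 0.0345 to 0.121 and differences from 0.34 to 0.43. Leaving out any of the 4 wild type arrays or dKO array 2, 3 or 4 ended it, as did fitting only the 2 cord groups (adjusted p = 0.0531) and using no floor (difference 0.38, adjusted p = 0.0681).

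The difference was also read by muscle content. Among the 2 wild type and 2 dKO cord arrays rich in muscle genes, mean Tia1 levels were 9.48 and 10.02, a difference of 0.54. Among the 2 and 2 poor in muscle genes they were 9.59 and 9.82, a difference of 0.23 (adjusted p = 0.560 without the muscle-rich arrays). Both differences were positive, but each rests on 2 and 2 arrays, and the second (SE 0.151) was not called. The mean level of the skeletal muscle genes spanned 7.58 to 10.11 in wild type cord and 7.43 to 9.68 in dKO cord. Between genotypes 0 of 11 passed, with an SE of up to 0.88 (Actc1). The part of muscle content in the Tia1 difference was not tested.

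Elavl2 levels were 10.32, 9.91, 9.84 and 10.07 in wild type cord and 10.43, 10.38, 10.58 and 10.27 in dKO cord. Wild type array 1 (10.32) lay above the lowest dKO array (10.27), so that the groups overlapped by this 1 pair. The difference of 0.38 (SE 0.127, 95% interval 0.12 to 0.65, 1.30-fold) had an unadjusted p of 0.0073 and an adjusted p of 0.0882. It passed the test in 2 of 18 alternatives: after quantile normalization (0.42, adjusted p = 0.0242) and without wild type array 1 (0.48, adjusted p = 0.0412). In the rest, the limma adjusted p reached 0.257, with no floor. Among muscle-poor arrays Elavl2 differed by 0.63 and among muscle-rich arrays by 0.13, the opposite order to that of Tia1.

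Elavl4 levels were 9.75, 9.34, 9.67 and 9.26 in wild type cord and 9.70, 9.84, 9.56 and 9.86 in dKO cord. The lowest 2 arrays were wild type and the highest 2 dKO, with the rest interleaved. The difference was 0.23 (SE 0.113, 95% interval 0.00 to 0.47, adjusted p = 0.264), and it was positive in all 18 alternatives, from 0.13 to 0.40, without passing in any.

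Elavl1 levels were 10.12, 9.76, 9.72 and 9.64 in wild type cord and 9.88, 9.87, 9.69 and 9.82 in dKO cord, with means that differed by 0.01 (95% interval -0.24 to 0.25). Elavl3 levels were 10.93, 10.58, 11.01 and 10.79 in wild type and 10.90, 10.82, 10.92 and 10.87 in dKO cord, a difference of 0.05 (95% interval -0.15 to 0.25). For both genes the dKO arrays lay within the span of the wild type arrays. Tial1 levels were 9.24, 9.18, 9.22 and 8.75 in wild type and 9.31, 9.10, 9.11 and 9.19 in dKO cord, a difference of 0.08 (95% interval -0.16 to 0.32). The lowest Tial1 value, 8.75, came from wild type array 4, which also had the lowest Tia1 level of its group.

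**Figure D2:**
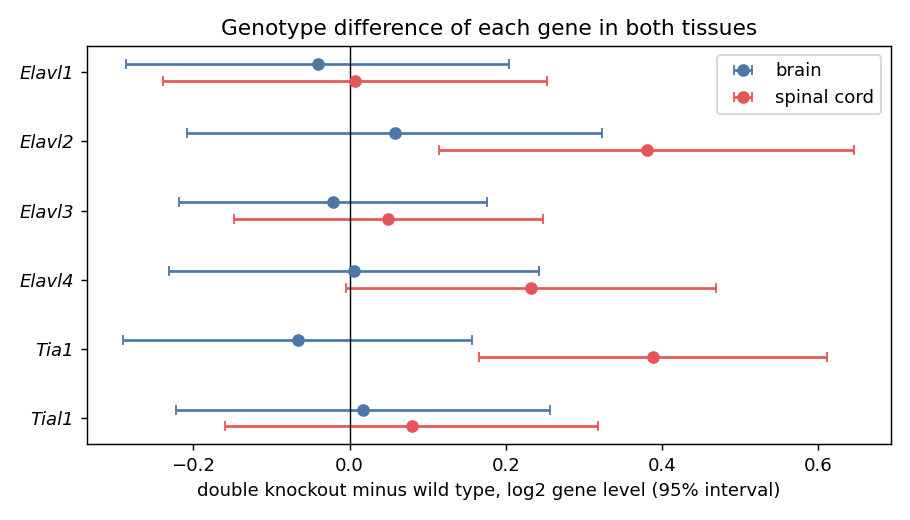
Difference in gene level, dKO minus wild type on the log2 scale, for each gene in brain and in cord, with 95% intervals from the fit over all 16 arrays. All brain intervals contain 0, and in cord the intervals of Tia1 (0.17 to 0.61) and Elavl2 (0.12 to 0.65) lie above it.

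Glial genes were lower in dKO cord, and their values stand beside the Tia1 and Elavl2 differences. Of the astrocyte genes, 6 of 7 measured were lower in dKO cord, and their mean level ran from 9.68 to 10.07, against 10.21 to 10.63 in wild type. Lower levels were also found for 3 of 6 oligodendrocyte genes (mean level 8.16 to 8.30 against 8.47 to 8.80) and 4 of 6 microglial genes (7.58 to 7.88 against 8.04 to 8.57). Of 11 pan-neuronal genes, 2 were higher and 1 was lower, and their mean level spanned 11.11 to 11.32 in dKO cord and 11.11 to 11.35 in wild type cord. The part of these other cell types in the member differences was not tested.

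The change in Tia1 was not shown to differ between the tissues. Its cord effect exceeded its brain effect by 0.45 (SE 0.151, 95% interval 0.14 to 0.77), with an adjusted p of 0.410. The same difference of effects was 0.32 for Elavl2 (adjusted p = 0.689) and 0.23 for Elavl4 (adjusted p = 0.772). For Elavl1, Elavl3 and Tial1 it was 0.05, 0.07 and 0.06. In limma, 0 of 14570 genes passed this test (0%), while 1166 had an unadjusted p under 0.05.

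Relatives were also subtracted from each other within arrays, where a change in overall brightness cancels, and only the shift of this difference between genotypes was read. In wild type cord, the Tia1 level minus the Tial1 level was 0.44 ± 0.139 and in dKO cord 0.74 ± 0.189 (SD, n = 4), a shift of 0.31 (exact permutation p = 0.0571, two-sided, 0.229 after adjustment over the 8 such tests). Elavl2 minus Elavl1 was 0.37 higher in dKO cord (exact permutation p = 0.0286, adjusted 0.229), where 0.0286 is the smallest p that 4 arrays against 4 can give. Elavl4 minus Elavl1 differed by 0.23 (exact permutation p = 0.0857) and Elavl3 minus Elavl1 by 0.04 (exact permutation p = 0.771). In brain, the exact permutation p-values of the same 4 contrasts ran from 0.286 to 0.857. These tests took the arrays as unpaired, although brain arrays of the same number deviated together. No contrast passed after adjustment.

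Single probe sets showed how evenly a difference ran along a gene. In cord, 29 of the 30 Tia1 probe sets above the floor had a higher mean in dKO, with differences from -0.12 to 0.87 and a median of 0.35. For 12 of the 30 the 4 dKO arrays lay above the 4 wild type arrays, which held for 3.75% of all probe sets. Probe sets of 1 gene share its RNA and its arrays, so they describe the gene and are not replicates.

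For Elavl2, 14 of 16 probe sets were higher in dKO cord, 5 of them with groups that did not overlap, from -0.06 to 1.10 with a median of 0.26. Elavl4 had 14 of 15 higher, 6 without overlap, with a median of 0.29. Tial1 had 20 of 23 higher, with 2 separated and a median of 0.12. Elavl1 (11 of 14 higher, median 0.03) and Elavl3 (4 of 10 higher, median -0.02) had no separated probe set. In brain, no member had a probe set whose dKO and wild type arrays were separated, against 1.89% of all probe sets that were separated and higher and 1.79% that were separated and lower. There 9 of 30 Tia1 probe sets and 8 of 23 Tial1 probe sets were higher in dKO.

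**Figure D3:**
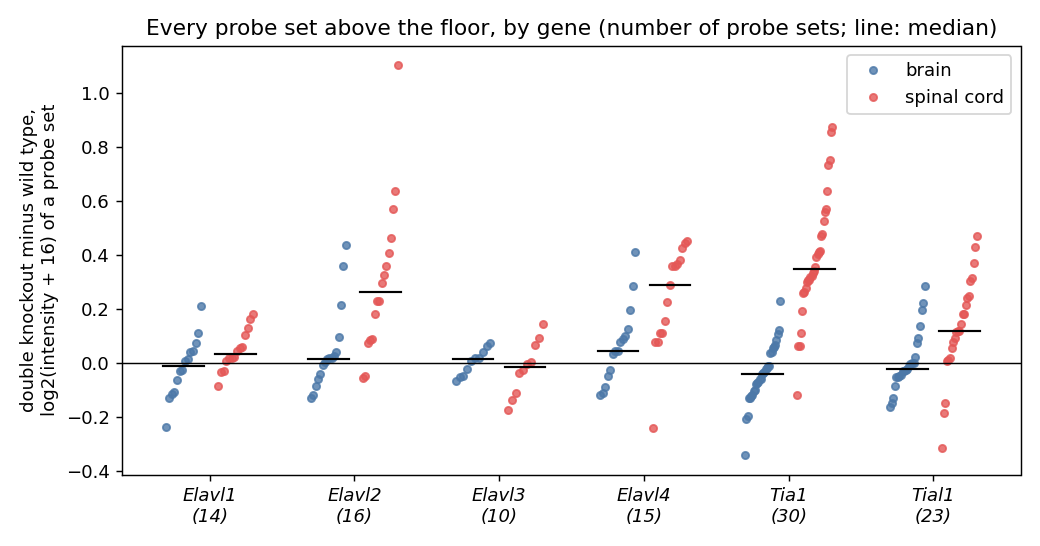
Difference in log2(intensity + 16), dKO minus wild type, for each of the 108 probe sets above the floor, by gene and tissue, with a line at the median of each gene. Tia1 in cord has 29 of 30 points above 0 with a median of 0.35, and in brain 9 of 30.

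The promoters of Tia1 and Tial1 are shown because this pair of close relatives had a called and an uncalled genotype difference in cord. Both come from RefSeq on assembly GRCm38.p6, run 5′ to 3′ on the gene's strand and end just before the first annotated base. For Tia1 the window is chr6:86403969-86404202, plus strand (234 bases), and for Tial1 it is chr7:128461727-128461923, minus strand (197 bases). Capitals mark matches to an E-box (CANNTG) in Tia1 and to a GC box (GGGCGG, on either strand) in Tial1.
Tia1: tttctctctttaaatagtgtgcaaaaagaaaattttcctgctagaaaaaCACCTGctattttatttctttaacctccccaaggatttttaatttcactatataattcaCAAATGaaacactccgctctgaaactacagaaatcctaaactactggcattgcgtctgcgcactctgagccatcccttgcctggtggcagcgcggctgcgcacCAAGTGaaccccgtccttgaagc
Tial1: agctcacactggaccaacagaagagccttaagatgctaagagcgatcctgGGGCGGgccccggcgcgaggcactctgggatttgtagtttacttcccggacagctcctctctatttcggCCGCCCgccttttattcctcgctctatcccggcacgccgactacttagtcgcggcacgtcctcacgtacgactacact
The Tia1 window had a GC content of 42.7% and 7 CpG, against medians of 52.1% and 5 over 32851 promoters trimmed to the same length. It held 3 E-box matches, and 64% of promoters of that length hold at least 1. The Tial1 window had a GC content of 58.4% and 18 CpG, against medians of 51.8% and 4, and held 2 GC box matches, where 24.1% of promoters of its length hold at least 1. Searched on both strands, the Tia1 window held no GC box (30.4% of promoters do), CCAAT (32.5%) or TATAAA (11.9%), and the Tial1 window held no E-box (58.6%), CCAAT (27.9%) or TATAAA (9.05%). The arrays measured no promoter activity, so these letters are a description.

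In wild type, 5 of 6 members were lower in cord than in brain, all with groups that did not overlap, while 60.4% of all genes were called, 39.8% were called lower and 26.3% were lower without overlap. The members' median was -0.46, against -0.16 for all genes. In dKO, 4 of 6 were lower in cord, where 66.4% of all genes were called and 47.8% called lower, with medians of -0.32 and -0.24. The wild type and the dKO tissue comparisons share no array, but each shares its cord arrays with the genotype comparison in cord.

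Elavl1 had the widest wild type difference: -0.62 (SE 0.117, adjusted p = 0.000246), that is 1.54-fold lower in cord, and in dKO it was lower by a log2 difference of -0.57 (adjusted p = 0.000399). Its group means ran from wild type brain (10.43 ± 0.205) over dKO brain (10.39 ± 0.121) and dKO cord (9.82 ± 0.0854) to wild type cord (9.81 ± 0.213). The neighbours within a tissue lay within 1 SD of each other, and the step lay between dKO brain and dKO cord. Elavl3 was lower in cord by -0.54 in wild type (SE 0.0946, adjusted p = 0.000117) and -0.47 in dKO (adjusted p = 0.000323). Its order was wild type brain (11.37 ± 0.0722), dKO brain (11.35 ± 0.0582), dKO cord (10.88 ± 0.0440) and wild type cord (10.83 ± 0.191), again with the one step between the tissues. Elavl1 and Elavl3 passed in all 19 alternatives of both tissue comparisons, but the size of the difference depended on the scaling. After quantile normalization it was smallest, at -0.39 in wild type and -0.30 in dKO for Elavl1. For Elavl3 it was then -0.32 in wild type and -0.23 in dKO (adjusted p = 0.0317 in dKO).

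Elavl4 was lower in wild type cord by -0.53 (SE 0.113, adjusted p = 0.000677) and in dKO cord by -0.30 (adjusted p = 0.0253). Its order was dKO brain (10.04 ± 0.108), wild type brain (10.03 ± 0.0932), dKO cord (9.74 ± 0.135) and wild type cord (9.51 ± 0.241). The brain groups lay within 1 SD of each other, and the cord groups overlapped. The dKO call ended with no floor (-0.24, adjusted p = 0.0827), with a higher floor, at the 75th percentile of probe sets (-0.23, adjusted p = 0.120), with means over probe sets (-0.18, adjusted p = 0.0505) and after quantile normalization (-0.05, adjusted p = 0.690). It also ended without dKO brain array 2 (adjusted p = 0.0860), dKO cord array 1 (0.0531) or dKO cord array 3 (0.0894).

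Tia1 was lower in wild type cord by -0.37 (SE 0.107, adjusted p = 0.00590) and stood at 0.08 in the dKO comparison (adjusted p = 0.4998). Its single probe sets did not follow this dKO gene level. In dKO, 21 of 30 were lower in cord and 9 higher, with a median difference of -0.16. In wild type, 29 of 30 were lower, with a median of -0.54. By gene level, the Tia1 order was dKO cord (9.92 ± 0.116), wild type brain (9.91 ± 0.224), dKO brain (9.84 ± 0.0695) and wild type cord (9.53 ± 0.0983). Of these, only wild type cord lay apart from its neighbour by more than their SDs. After quantile normalization the wild type difference was -0.17 (adjusted p = 0.135) and the dKO difference 0.34 (adjusted p = 0.00625), and without the muscle-rich arrays the wild type difference was -0.31 (adjusted p = 0.0574). Tial1 was lower in wild type cord by -0.40 (SE 0.114, adjusted p = 0.00571) and in dKO cord by -0.34 (adjusted p = 0.0143). Its order was dKO brain (9.52 ± 0.116), wild type brain (9.50 ± 0.150), dKO cord (9.18 ± 0.0964) and wild type cord (9.10 ± 0.234), and neighbours of the same tissue lay within their SDs. The Tial1 call ended with no floor in dKO (-0.20, adjusted p = 0.181) and without the muscle-rich arrays in wild type (-0.30, adjusted p = 0.0541).

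Elavl2 was the member with no called tissue difference, at -0.13 in wild type (adjusted p = 0.395) and 0.20 in dKO (adjusted p = 0.178). Its order was dKO cord (10.42 ± 0.126), dKO brain (10.22 ± 0.244), wild type brain (10.16 ± 0.137) and wild type cord (10.04 ± 0.212), and no neighbours differed by more than the larger of their SDs. Quantile normalization turned the wild type sign (0.10, not called) and gave a called dKO difference of 0.47 (adjusted p = 0.00215), as did means over probe sets (0.41, adjusted p = 0.00108). In wild type it was called lower with this higher floor (-0.32, adjusted p = 0.0162) and without the muscle-rich arrays (-0.38, adjusted p = 0.0309).

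The exon index of a probe set is its log2 value less its gene's level on that array, and it moves when a probe set changes relative to its gene. It was tested for 193126 probe sets of 12340 genes, among them all 108 of the members above the floor. Between genotypes, 0 of the 108 passed in brain, against 0.15% of all probe sets, and 0 passed in cord, against 0.388%. At an unadjusted p under 0.05, limma gave 2 of 108 in brain (3.3% of all) and 14 of 108 in cord (11.8% of all), so the members lay near the background. For the difference between the tissues, 0 of 108 passed (0.000518% of all), with 8 at an unadjusted p under 0.05 (5.67% of all).

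The probe sets with the highest and lowest genotype difference in exon index were followed for each gene. In cord, Tia1 probe set 4914215 had indices of -1.53, -1.28, -1.68 and -1.73 in wild type and -1.91, -1.99, -2.13 and -2.21 in dKO. All dKO arrays lay below all wild type arrays, with a difference of -0.51 (SE 0.119) and an adjusted p of 0.0843. Tia1 probe set 5569058 had indices of 0.16, -0.39, -0.03 and 0.04 in wild type and 0.29, 0.45, 0.60 and 0.37 in dKO cord, again without overlap (difference 0.48, adjusted p = 0.152). Indices without overlap between genotypes in cord were found for 6 of the 108 member probe sets, 5 of them of Tia1, against 5.69% of all probe sets. None of these passed the test.

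The cord extremes of the other members were closer to their spread. Elavl2 ranged from -0.44 at probe set 5276156 (adjusted p = 0.255) to 0.72 at 4548967 (adjusted p = 0.309), and the latter had a mean level of 6.81, just above the floor. Elavl4 ranged from -0.47 at 5353391 (adjusted p = 0.292) to 0.22 at 5094331. Tial1 ranged from -0.40 at 4730567 (adjusted p = 0.390) to 0.39 at 5072838 (adjusted p = 0.354). Elavl1 stayed between -0.09 at 5592728 and 0.17 at 4814294, and Elavl3 between -0.23 at 4485651 and 0.09 at 5213002.

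In brain the extremes were smaller for most genes. Tia1 ranged from -0.28 at probe set 5585053 (adjusted p = 0.845) to 0.29 at 4763029 (adjusted p = 1.00), both with groups that did not overlap. Such indices were found for 5 of the 108 member probe sets in brain, 4 of Tia1 and 1 of Elavl4, against 2.63% of all probe sets, and none passed the test. Elavl4 reached 0.40 at 5094331 and Elavl2 0.38 at 4814240, with lowest values of -0.13 at 5323175 and -0.19 at 5218090. Elavl1 ran from -0.20 at 4610404 to 0.25 at 4461917, Elavl3 from -0.05 at 5538377 to 0.09 at 4682273, and Tial1 from -0.18 at 5578940 to 0.27 at 4668173.

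Between tissues, exon indices of all 6 genes changed. In wild type, 31 of 108 probe sets (28.7%) passed, 17 higher and 14 lower in cord, against 22% of all probe sets, of which 12.4% were higher and 9.59% lower. In dKO, 40 of 108 (37%) passed, 20 in each direction, against 25.9% of all (15.1% higher and 10.8% lower). The 25 probe sets called in both made up 80.6% of those called in wild type and 62.5% of those called in dKO, and each had the same sign in both. This overlap was not counted over all probe sets, so it is not read as particular to these genes. Leaving out 1 array moved the counts to between 22 and 32 in wild type and between 26 and 34 in dKO.

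Elavl2 had 8 of its 16 probe sets called in each genotype. Probe set 4814240 had indices of -2.78, -1.77, -1.12 and -1.53 in wild type brain and -0.17, -0.35, -0.80 and -0.07 in wild type cord. The dKO arrays gave -1.68, -1.68, -1.03 and -1.30 in brain and -0.26, -0.13, 0.05 and -0.04 in cord. The brain and cord arrays were separated in both genotypes, as for 20.4% of all probe sets in wild type and 31% in dKO, with differences of 1.45 (SE 0.268, adjusted p = 0.00159) and 1.33. Probe set 5139040 had indices of -1.99, -1.55, -0.44 and -1.15 in wild type brain against 0.03, -0.29, -0.21 and 0.20 in cord, and of -1.24, -1.01, -1.02 and -0.65 in dKO brain against 0.04, 0.13, 0.13 and 0.19. Wild type brain array 3, the array with low cortical genes, was the wild type brain array nearest to cord here and at 4814240, and both probe sets stayed called without the number 3 arrays. The differences of 5139040 were 1.21 and 1.10. Probe set 4548967, close to the floor, differed by 1.53 in wild type and 2.28 in dKO (adjusted p = 4.69e-05). Toward brain, 4475725 (-0.77 and -0.90) and 4526745 (-0.61 and -0.61) were lower in cord, and 4553758 (0.82 and 0.57) and 5218090 (0.62 and 0.50) were higher. Probe set 4990707 was called in wild type alone (-0.40) and 5378037 in dKO alone (0.69), and for neither was the difference between genotypes called.

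Elavl3 had 3 of 10 called in wild type and 4 of 10 in dKO. The index of probe set 4682273 rose in cord by 1.38 (adjusted p = 0.000230) and 1.202, that of 4908498 by 0.35 and 0.24, and that of 4769771 stood at -0.44 and -0.65. Probe set 4379892 was called in dKO alone, at -0.23. Elavl4 had 4 of 15 called in wild type and 3 in dKO. The index of 4924563 rose by 1.49 in both genotypes (adjusted p = 0.000298 in wild type), that of 5094331 by 0.77 and 0.58, and that of 5009844 stood at -0.37 and -0.44. Elavl4 probe set 4472745 was called in wild type alone, at -0.49. In Elavl1, 4 of 14 in wild type and 3 in dKO passed and all had a higher index in cord: 4460713 (1.11 and 1.00), 4461917 (0.79 and 0.70) and 4946433 (0.49 and 0.67) in both, and 5379417 (0.31) in wild type. The 3 called in both had mean levels of 7.94, 7.08 and 8.09. The Elavl1 gene level was lower in cord (-0.62 and -0.57), and an index rises where a probe set falls less than its gene. No Elavl1 probe set itself rose by more than 0.49 in wild type cord or 0.43 in dKO cord.

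Tia1 had 5 of 30 called in wild type and 16 of 30 in dKO, of which 4 were shared. Probe set 5370579 had indices of -0.12, -0.18, -0.14 and -0.11 in wild type brain and 0.90, 0.08, 0.83 and 0.44 in wild type cord. Its dKO indices were -0.10, -0.32, -0.27 and -0.02 in brain and 0.75, 0.64, 0.57 and 0.38 in cord. Every cord array lay above every brain array of its genotype, with differences of 0.70 (SE 0.148, adjusted p = 0.00370) and 0.76. Probe set 4763029 ran the other way, from -0.76, -0.70, -1.01 and -0.78 in wild type brain to -1.15, -1.26, -1.30 and -1.71 in cord, and from -0.39, -0.44, -0.56 and -0.69 in dKO brain to -1.47, -1.50, -1.42 and -1.22 in cord. It was lower in cord by -0.54 in wild type and -0.88 in dKO (adjusted p = 0.000120 in dKO). Probe sets 4376309 (-0.28 and -0.40) and 5099179 (-0.60 and -0.45) completed the shared set, and 4800824 was called in wild type alone (-0.62).

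Of the 12 Tia1 probe sets called in dKO alone, 10 were lower and 2 were higher in cord. The lower ones ran from -0.65 at 5152015 to -0.27 at 5375948 and held 4640162, 4876533, 4910180, 4914215, 5185704, 5315313, 5400148 and 5459588 between these. The higher ones were 5569058 (0.53) and 5487562 (0.40). In dKO, the Tia1 gene level was 0.08 higher in cord, while the median difference of its single probe sets was -0.16. In wild type these values were -0.37 and -0.54. Since an index is taken against the gene level, such a gap lowers the indices of a gene together. The part of this gap in the lower calls was not tested. The dKO cord arrays also enter the genotype comparison, in which the Tia1 level was higher while none of these indices passed. No Tia1 probe set passed the test of the difference between the tissues' genotype effects.

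Tial1 had 7 of 23 called in wild type and 6 in dKO. Probe set 5332484 was higher in cord by 1.24 and 0.99, 5578940 by 0.76 and 0.71, and 4710930 by 0.56 and 0.54. Probe set 4668173 was lower, at -1.51 (adjusted p = 0.000589) and -1.84, and 5221404 was lower at -0.47 and -0.31. Probe sets 4812915 (-0.40) and 4903522 (-0.57) passed in wild type alone and 4667246 (0.76) in dKO alone. Over all 6 genes, 14 of the 31 probe sets called in wild type stayed called in every alternative that measured them. In dKO it was 14 of the 40 called. The same was not counted over all probe sets.

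**Figure D4:**
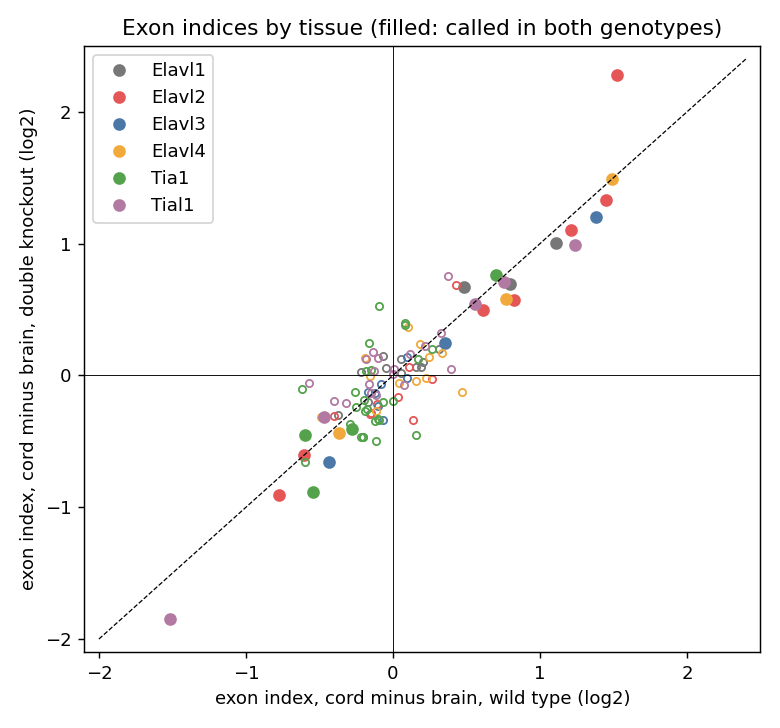
Exon index difference, cord minus brain on the log2 scale, in wild type (x axis) and dKO (y axis) for the 108 probe sets of the 6 genes, with the 25 called in both genotypes filled. The filled points span -1.51 to 1.53 in wild type and -1.84 to 2.28 in dKO, and each has the same sign on both axes.

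Brightness moved with the exon indices. Member probe sets called higher in wild type cord had a median level of 8.09 and those called lower 9.95. Over all called probe sets these medians were 8.33 and 8.90. In dKO the members' medians were 8.53 and 9.76, against 8.37 and 8.77 over all called probe sets. Of the 14 member probe sets with a mean level under 8, 8 were called higher and 1 lower in wild type cord, and 9 and 2 in dKO cord. At any level, 12.4% of all probe sets were called higher and 9.59% lower in wild type, and 15.1% and 10.8% in dKO. The shares under a level of 8 were not counted over all probe sets, so these counts are not read as particular to the members. Across the 108 probe sets the index difference had a correlation of -0.308 with mean level in wild type and -0.285 in dKO, against -0.0848 and -0.0740 over all 193126 probe sets, which share the same arrays and are not independent. Median intensity was 99.5 to 116.2 on cord arrays and 72.3 to 82.9 on brain arrays. The part of brightness in the tissue differences of these exon indices was not tested.

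**Figure D5:**
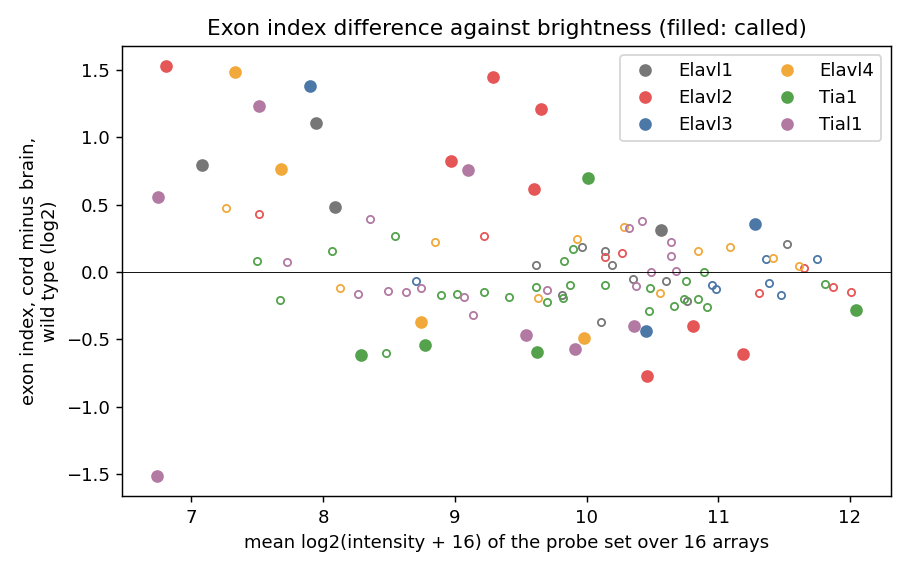
Exon index difference between wild type cord and wild type brain (log2) against the mean log2(intensity + 16) of each of the 108 probe sets over 16 arrays, with called probe sets filled. Of the 14 probe sets under a level of 8, 8 were called higher and 1 was called lower, which was not counted over all probe sets.

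Genes that work with the Hu and TIA proteins were taken from lists written for these proteins. In brain, no tested gene of the 4 lists passed between genotypes, except that 1 Hu target mRNA passed when dKO brain array 3 was left out. In cord 4 passed, all lower, where 5.63% of all genes were called and 4.55% called lower. Among 15 tested proteins that bind AU-rich or other regulatory mRNA elements, Auh, an RNA-binding enoyl-CoA hydratase, was lower in dKO cord by -0.38 (adjusted p = 0.0109), and the list's median was 0.00. The stress granule list held 22 tested genes, among them the kinases Eif2ak1 to Eif2ak4. Of the 22, Stau2, a double-stranded RNA-binding protein of neuronal transport granules, was lower by -0.54 (adjusted p = 0.00398), with a list median of -0.04. Of 18 mRNAs known as Hu targets, Cd83 (-0.90, adjusted p = 0.000155) and the cell cycle inhibitor Cdkn1a (-0.63, adjusted p = 0.0122) were lower and the median was -0.02. Among 7 proteins of the U1 snRNP and its partners none passed in cord or brain. Without the muscle-rich arrays, 0 proteins that bind AU-rich or other mRNA elements, 0 genes of the stress granule list and 1 Hu target mRNA were called. The median of all genes in cord was -0.03.

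Between wild type cord and brain, 8 of the 15 proteins that bind AU-rich or other mRNA elements were lower and 1 was higher. Of the stress granule list, 11 of the 22 genes were lower. Of the 18 Hu target mRNAs, 10 were lower and 2 were higher, and 4 of the 7 U1 proteins were lower. Of all genes in this comparison, 60.4% were called and 39.8% called lower. The list medians ran from -0.41 to -0.24, below the median of all genes (-0.16).

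The genes whose levels ran most like each member over the 16 arrays were named by Pearson correlation, as a description. For Elavl1 they were Mapre1 (0.986), Txndc4 (0.985) and Hdgf (0.976), and after the group means were removed these correlations were 0.934, 0.926 and 0.882. For Elavl2 they were Rasa2 (0.878), Dach1 (0.856) and Pcdhb18 (0.833). For Elavl3 they were Lpgat1 (0.974), Acadsb (0.968) and Pfdn5 (0.968). For Elavl4 they were Vim (0.948), which encodes the intermediate filament vimentin, Pam (0.944) and Nr2f1 (0.942). Tia1 ran most like Gas5 (0.892), a host gene of small nucleolar RNAs, Arglu1 (0.865) and Zfp54 (0.859). Tial1 ran most like Ttc8 (0.934), Heatr3 (0.929) and Taf11 (0.929). After the group means were removed, the correlations of these other members were lower than those of Elavl1. They ran from 0.703 (Tia1 with Zfp54) to 0.840 (Tial1 with Taf11), and for Elavl3 they were 0.780, 0.734 and 0.780.

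Among the members themselves, Elavl1 ran with Elavl3 (0.890) and Tial1 (0.845), and Elavl4 with Elavl3 (0.852) and Tial1 (0.858). Elavl2 ran least like the rest, with correlations between -0.0489 and 0.379, and Tia1 lay between 0.379 and 0.633. These 16 arrays hold 2 tissues, so that a shared tissue difference alone raises such a correlation.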

How the data were processed

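Trizol was used to extract total RNA, which was biotin-labelled, per the labels' protocols. Each probe set has 1 deposited intensity per array, on a linear scale. The authors' software was Affymetrix Power Tools with the PLIER summary of probes and build mm8, as named in the submitters' processing notes. For these, version and settings were not given in the sources used here. Gene symbols came from the platform annotation, which pairs 303629 probe sets with 1 symbol and 5892 with several, while 316013 are unnamed here. Groups and replicate numbers came from the sample titles.

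All work used log2(intensity + 16), which understates differences of dim probe sets. Gene levels needed at least 3 probe sets above the floor and exon indices at least 5. The limma package (version 3.58.1, with R 4.3.3 and data.table version 1.17.8) fitted 4 group means to the 16 arrays with lmFit and eBayes, two-sided, with Benjamini-Hochberg adjustment over all 14570 genes or 193126 probe sets of a comparison and a threshold of 0.05. The fits were also run on simulated data with known changes. There the noise was drawn independently for each probe set, whereas real probe sets of a gene share their arrays. The outcome of this run is not used as support here. Single within-array contrasts had an exact permutation test. The number of arrays limits the precision. Alternatives were the pseudocount (1 or 64), no floor or one at the 75th percentile, means in place of medians, quantile normalization, a term for sex, a replicate block, a fit of only the 2 groups compared, and leaving out each array. Leaving out the 4 muscle-rich cord arrays, or both brain arrays of number 3, was added after seeing the data.

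Arrays of the same number deviated together in brain: the correlation of their deviations from the group means was 0.212 to 0.407 over the 4 pairs, each highest with its own number, so the numbers pair the brain arrays by the data and not by a label. In cord it was -0.120 to -0.00296, which shows no pairing by number there but does not exclude one. Between the tissues of a genotype it was -0.152 to -0.0405 in wild type and -0.0208 to 0.0441 in dKO.

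The members, the gene lists and the tests were chosen with earlier results of these data known. Named are the members in every group, each member probe set called in an exon index comparison, the highest and lowest genotype difference in exon index per member, the 3 genes most like each member (members and predicted clone genes left out), and the list genes called between genotypes. Positions of probe sets within genes were not used here, and probe sets carry identifiers in place of exon names. Members share related sequence, and binding of one member's RNA to another's probes was not tested. Promoters came from RefSeq (GRCm38.p6), and protein sequences were not used here.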

Additional observations from a re-analysis of the deposited data

Results flagged for a closer look

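Each of the 24 groups of 4 gene levels (6 genes in 4 groups) was searched for 1 array that stood apart from the other 3 by Dixon's ratio, the gap to the nearest array over the whole range, at its 95% critical value. Chance gives about 1 such array in 20 groups. The Elavl4 level of dKO brain array 2 was 10.20, against 9.98 to 9.99 on the other 3, a ratio of 0.933. The Tia1 level of wild type cord array 4 was 9.39, against 9.57 to 9.59, a ratio of 0.864. The Tial1 level of the same array was 8.75, against 9.18 to 9.24, a ratio of 0.876. Wild type cord array 4 is one of the muscle-rich arrays, whose part in its low Tia1 and Tial1 levels was not tested. Without this array the Tia1 difference between genotypes in cord was 0.34 (adjusted p = 0.0700, limma). Without dKO brain array 2 the Elavl4 tissue difference in dKO lost its call (adjusted p = 0.0860).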

How the results depend on the processing

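Of 600 alternative values of member gene levels, 572 kept their side of the threshold, 21 lost a call and 7 gained one, and no called value changed sign, while 51 signs changed with neither value called. Of 1710 alternative values of named exon indices, 252 lost a call and 1 gained one. The number of members called between genotypes in cord, 1 over all arrays, was 0 with no floor, 0 with only the 2 groups compared, 0 without the muscle-rich arrays and 2 after quantile normalization, and ran from 0 to 1 when 1 array was left out. The number of members called between the tissues in dKO, 4 over all arrays, was 2 with no floor. The number of member exon indices called between genotypes in cord, 0 over all arrays, was 1 with means over probe sets and ran from 0 to 1 when 1 array was left out. The number called between the tissues in dKO, 40 over all arrays, was 23 without the muscle-rich arrays and ran from 26 to 34 when 1 array was left out. A replicate block, which the pairing check bears out for brain alone, changed no gene call of a member: Tia1 in cord stayed called at 0.39 (adjusted p = 0.0338), and called exon indices numbered 26 in wild type and 32 in dKO between the tissues. The difference of the genotype effects was not fitted with only the 2 groups compared.

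Over all genes, the 820 called between genotypes in cord became 1620 after quantile normalization, 106 without the muscle-rich arrays, 523 without wild type cord array 3, 1232 without wild type cord array 4, and 417 to 424 without dKO cord array 2, 3 or 4. The 39 called in brain became 24 with only the 2 groups compared. The difference of effects, with 0 genes called, gave up to 34 (quantile normalization). Among the gene lists in cord, proteins that bind AU-rich or other mRNA elements went from 1 called to 0 with no floor, with means over probe sets and without the muscle-rich arrays. The stress granule list went from 1 to 2 after quantile normalization and without wild type cord array 1 or 4, and to 0 without the muscle-rich arrays. Hu targets went from 2 to 1 without dKO cord array 3 or the muscle-rich arrays, and U1 proteins from 0 to 1 without wild type cord array 3. In brain, 1 Hu target was called without dKO brain array 3. Dim probe sets, such as 4548967 and 4668173 near the floor, limit what the exon indices show.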
